A study of Mus musculus with 12 samples.

Results

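The 10 genes described here encode ADAM and ADAMTS proteases, chosen by name: Adam9, Adam10, Adam15, Adam17, Adam11, Adam22, Adam23, Adamts1, Adamts4 and Adamts5. They are 10 of the 17416 genes in the deposited table, and all 10 passed the filter on low values that left 17106 genes for testing. Their transcripts were measured in punches of the lateral habenula, a nucleus of the dorsal diencephalon that is active during aversive events. The mice were C57BL/6, 9 weeks old, with no transgene or drug named in the labels. The groups were 4 defeated mice called stress-susceptible, 4 defeated mice called stress-resilient and 4 non-defeated mice, with 1 library per label.

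ADAMs are membrane proteins of the metzincin family, and the catalytic ones cut the outer parts of other membrane proteins close to the cell surface, a step called shedding. They are made as precursors, and furin-type convertases commonly remove the inhibitory prodomain. Some ADAMs have lost the zinc-binding residues and act as receptors, as ADAM22 and ADAM23 do for the secreted neuronal protein LGI1. ADAMTS proteases are secreted, and ADAMTS1, ADAMTS4 and ADAMTS5 are known for cutting the chondroitin sulfate proteoglycans of the extracellular matrix.

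The genes classed beforehand as catalytic and non-catalytic differ in their coding sequence. The search was for codons of histidine, glutamate, any 2 residues, histidine, any 5 residues and histidine, read on the coding strand of 1 GENCODE M21 transcript per gene (GRCm38). This zinc-binding pattern was present once in 7 of the 10 genes and absent from Adam11, Adam22 and Adam23. The pattern was widened after a first version missed Adamts1 and Adamts4, so the split is not independent of the known classes. The coding sequences of 96 of 21431 protein-coding genes, 0.448%, held it. Each sequence below is shown 5′ to 3′ with the codons of the 3 histidines in capitals, for both sheddases most studied in brain and for the secreted proteases.
Adam10: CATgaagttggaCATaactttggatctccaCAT
Adam17: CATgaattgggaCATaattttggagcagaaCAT
Adamts1: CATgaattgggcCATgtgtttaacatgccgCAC
Adamts4: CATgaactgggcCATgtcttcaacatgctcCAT
Adamts5: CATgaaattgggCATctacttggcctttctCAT

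Over these 33 bases, which include the codons fixed by the search, Adam10 and Adam17 shared 26, and Adamts1 and Adamts4 shared 27. Adamts5 shared 20 bases with Adamts1 and 19 with Adamts4, beside 23 with Adam9, 22 with Adam10, 19 with Adam15 and 19 with Adam17. The pattern began at codon 384 of Adam10, codon 424 of Adam17, codon 402 of Adamts1, codon 369 of Adamts4 and codon 410 of Adamts5.

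A run of 4 codons of the furin type, arginine, any residue, lysine or arginine, and arginine, preceded the zinc-binding pattern in all 7 genes that held the pattern. It is shown because furin-type convertases are among the partners described further on. The codons that the search required to be basic are in capitals, and the codon of any residue is in lower case. The run is a match of letters only, and 24.2% of the protein-coding genes held such a run somewhere in their coding sequence. The genes without the zinc-binding pattern held such runs too, 2 in Adam11, 3 in Adam22 and 1 in Adam23. The run was therefore not particular to the genes with the pattern.
Adam10: AGGaaaAAACGC
Adam17: CGAgtgAAGAGA
Adamts1: AGGaagAAGCGA
Adamts4: AGAaccAAGCGC

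In Adamts1, Adamts4 and Adamts5 the nearest such run began 152 codons before the zinc-binding pattern. In the catalytic ADAMs that distance was 62 codons in Adam15, 145 in Adam9, 173 in Adam10 and 213 in Adam17.

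Libraries held 33.3 to 47.7 M reads (M, 1000000), so that 1 read stood for 0.0209 to 0.0300 reads per 1000000 reads (CPM). Levels below are CPM after TMM scaling between libraries. Fold changes are those of log2(CPM + 1), so that a change in a gene with few reads comes out too small. In this bulk tissue fewer cells of a type and less RNA per cell cannot be told apart. All 6 lateral habenula markers were present, with summed levels of 1437 to 1850 CPM in susceptible, 1111 to 2101 CPM in resilient and 1459 to 1811 CPM in non-defeated libraries. The 8 thalamus markers were present as well. Their sums were 1455 to 1593 CPM in susceptible, 1278 to 1840 CPM in resilient and 1569 to 1981 CPM in non-defeated libraries. These sums do not show how much of a punch was lateral habenula. The library titles carry a letter H or N that the labels do not explain. All non-defeated libraries have H, all resilient ones have N, and the susceptible ones have 2 of each. A difference between resilient and non-defeated mice can therefore be separated from the letter only through the 4 susceptible libraries. All 5 measured blood genes were higher in both defeated groups at an unadjusted p under 0.05, and 0 passed adjustment by limma-trend. Their sum was 878 to 5593 CPM in susceptible, 1028 to 2046 CPM in resilient and 263 to 815 CPM in non-defeated libraries. The sum of the 8 oligodendrocyte genes was 13867 to 18202 CPM in susceptible, 12406 to 15521 CPM in resilient and 10631 to 15510 CPM in non-defeated libraries. The sum of the 8 endothelial and mural genes was 241 CPM in resilient replicate 4, 27.1 to 36.6 CPM in the other resilient libraries, at most 57.9 CPM in susceptible and at most 41.5 CPM in non-defeated ones. Resilient replicate 4 also had the lowest sum of lateral habenula markers, 1111 CPM, and was the highest of the 12 libraries for Adam11, Adam15 and Adam22. The sum of the 9 medial habenula markers was 221 to 297 CPM in susceptible and 164 to 313 CPM in resilient libraries. In non-defeated libraries it was 732 CPM in replicate 3 and 219 to 366 CPM in the others. The part of these differences in the results on the protease genes was not tested.

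Levels between genes were compared as CPM per kilobase of exon (CPM per kb), over the 12 libraries. The length was that of all annotated exons of a gene merged, 14.3 kb for Adam22 and 17.9 kb for Adam23. The order of the genes depends on this choice of length. Adam9 had the highest mean level, 13.6 ± 3.09 CPM per kb, followed by Adam15 at 11.5 ± 2.51, Adam11 at 11.04 ± 3.63, Adam10 at 8.84 ± 2.46 and Adam22 at 7.72 ± 2.03 CPM per kb (SD, n = 12). Adamts4 stood at 6.97 ± 2.57 CPM per kb, the highest of the 3 secreted proteases. Adam17 stood at 2.17 ± 1.19, Adam23 at 1.44 ± 0.40, Adamts1 at 1.09 ± 0.77 and Adamts5 at 0.173 ± 0.146 CPM per kb (SD, n = 12).

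Most neighbours in this order did not differ beyond their spread between libraries. The gap between Adamts4 and Adam17, 4.80 CPM per kb, was larger than either SD, and Adamts4 lay above Adam17 in 12 of 12 libraries. The gap between Adamts1 and Adamts5, 0.92 CPM per kb, also exceeded both SDs, with Adamts1 above in 11 of 12 libraries. The other neighbours differed by less than the larger of their SDs, in the same direction in 6 to 10 of 12 libraries.

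**Figure D1:**
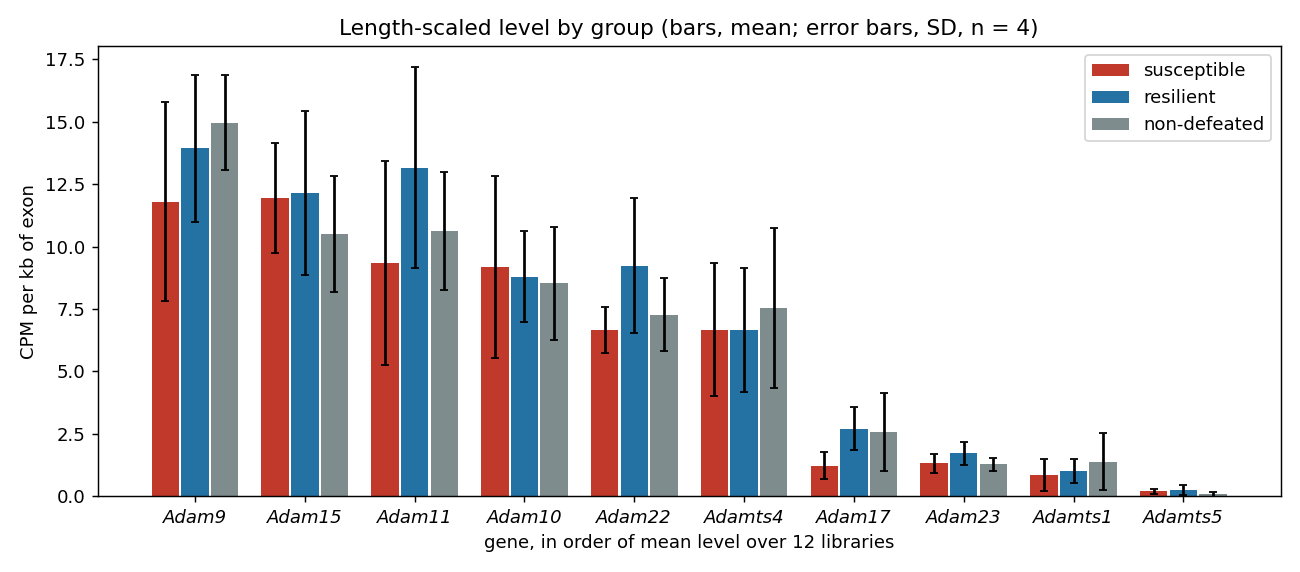
Mean level of each gene in CPM per kb of exon (y axis) for susceptible, resilient and non-defeated mice (bars, mean; error bars, SD, n = 4 each), genes ordered by their mean over 12 libraries. Adam9 is highest at 13.6 CPM per kb and Adamts5 lowest at 0.173 CPM per kb, with a step between Adamts4 and Adam17.

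The catalytic ADAMs are given first. Adam17 encodes the sheddase that releases tumor necrosis factor and several ligands of the epidermal growth factor receptor (ENSMUSG00000052593; chr12:21323509-21373632, minus strand, GRCm38). It stood at 11.2, 4.39, 12.6 and 6.84 CPM in susceptible, 15.9, 12.7, 26.4 and 22.3 CPM in resilient, and 32.4, 21.7, 7.11 and 12.3 CPM in non-defeated libraries. All 4 susceptible libraries lay below all 4 resilient ones, by as little as 12.6 against 12.7 CPM, while non-defeated libraries spanned both groups.

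Means of Adam17 were 8.76 ± 3.81 CPM in susceptible, 19.3 ± 6.14 CPM in resilient and 18.4 ± 11.1 CPM in non-defeated mice (SD, n = 4 each). The log2 fold change of susceptible over resilient mice was -1.10 ± 0.44 (SE; 95% interval -2.04 to -0.16). Its Benjamini-Hochberg adjusted p over all 17106 genes was 0.999 by limma-trend, and it ranked 306 among them by p. Its unadjusted p was under 0.05, but no longer so without susceptible replicate 2 (log2 fold change -0.84), susceptible replicate 4 (-1.01), resilient replicate 3 (-0.94) or resilient replicate 4 (-1.02). Over non-defeated mice the log2 fold change was -0.89 ± 0.44 in susceptible mice (SE; limma-trend adjusted p = 0.9997) and 0.21 ± 0.44 in resilient mice (SE; limma-trend adjusted p = 0.978).

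Within libraries of letter N, Adam17 stood at 6.84 and 12.6 CPM in susceptible mice, against 12.7 to 26.4 CPM in 4 resilient mice. Within letter H it stood at 4.39 and 11.2 CPM in susceptible mice, against 7.11 to 32.4 CPM in 4 non-defeated mice. With the letter as a term in the model, the difference between susceptible and resilient mice was -0.92 on the log2 scale, with an unadjusted p above 0.05 (limma-trend adjusted p = 0.9999). The test in the authors' deposited table covers the 3 groups at once, and there Adam17 had p = 0.0383 and FDR 0.909, and the other 9 genes had FDR of 0.999987.

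Adam10 encodes the main alpha-secretase of neurons, which also sheds Notch and N-cadherin (ENSMUSG00000054693; chr9:70678997-70780229, plus strand). Its levels were 59.5, 34.5, 61.0 and 25.3 CPM in susceptible, 33.5, 51.3, 37.6 and 50.5 CPM in resilient, and 56.8, 40.2, 40.8 and 29.9 CPM in non-defeated libraries. The groups overlapped throughout, with means of 45.1 ± 17.9 CPM in susceptible, 43.2 ± 9.01 CPM in resilient and 41.9 ± 11.1 CPM in non-defeated mice (SD, n = 4 each). The 95% interval of its log2 difference between susceptible and resilient mice ran from -0.64 to 0.62.

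Adam9, a widely expressed sheddase (ENSMUSG00000031555; chr8:24949611-25016927, minus strand), stood at 62.5, 44.4, 60.2 and 27.2 CPM in susceptible libraries. In resilient libraries it stood at 40.8, 70.0, 59.0 and 59.5 CPM, and in non-defeated libraries at 53.5, 72.2, 61.1 and 59.4 CPM. Susceptible replicate 4 was the lowest of the 12, and the groups overlapped. The log2 fold change was -0.40 ± 0.25 (SE) in susceptible and -0.12 ± 0.25 (SE) in resilient mice over non-defeated mice.

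Adam15, a membrane ADAM with a signalling cytoplasmic tail (ENSMUSG00000028041; chr3:89338542-89349996, minus strand), averaged 73.5 ± 13.5 CPM in susceptible, 74.7 ± 20.2 CPM in resilient and 64.6 ± 14.3 CPM in non-defeated mice (SD, n = 4 each). Resilient replicate 4, at 102 CPM, was the highest library and non-defeated replicate 4, at 46.6 CPM, the lowest. Its log2 fold change of susceptible over resilient mice was -0.0033 (95% interval -0.48 to 0.47).

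The 3 ADAMs without the zinc-binding codons are neuronal. Adam22 encodes the LGI1 receptor that is tied to PSD-95 at synapses (ENSMUSG00000040537; chr5:8072352-8368160, minus strand), and had the highest CPM of the 10 genes before scaling by length. It stood at 110, 86.9, 103 and 82.1 CPM in susceptible, 98.2, 119, 125 and 188 CPM in resilient, and 128, 102, 77.6 and 110 CPM in non-defeated libraries. Resilient replicate 4 was the highest of the 12, and susceptible and resilient libraries overlapped only between 98.2 and 110 CPM.

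Group means of Adam22 were 95.5 ± 13.2 CPM in susceptible, 132 ± 38.7 CPM in resilient and 104 ± 21.0 CPM in non-defeated mice (SD, n = 4 each). The log2 fold change of susceptible over resilient mice was -0.44 ± 0.21 (SE; limma-trend adjusted p = 0.999), and -0.26 without resilient replicate 4. Resilient over non-defeated mice gave 0.32 ± 0.21 (SE), and susceptible over non-defeated mice gave -0.11 ± 0.21 (SE).

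Adam11, which in mouse cerebellum is needed to place Kv1 channels at basket cell terminals (ENSMUSG00000020926; chr11:102761439-102780262, plus strand), stood at 57.7, 24.5, 49.4 and 80.4 CPM in susceptible libraries. In resilient libraries it stood at 55.7, 55.5, 86.2 and 101.0 CPM, and in non-defeated libraries at 73.5, 62.7, 41.7 and 62.9 CPM. Susceptible replicate 2 was the lowest and resilient replicate 4 the highest, and the groups overlapped. The log2 fold change of susceptible over resilient mice was -0.55 ± 0.32 (SE; limma-trend adjusted p = 0.999).

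Adam23, a presynaptic LGI1 receptor (ENSMUSG00000025964; chr1:63445891-63596276, plus strand), averaged 23.6 ± 6.81 CPM in susceptible, 30.9 ± 8.21 CPM in resilient and 23.0 ± 4.75 CPM in non-defeated mice (SD, n = 4 each). Its values ran from 16.6 to 32.5 CPM in susceptible, 21.3 to 39.1 CPM in resilient and 16.3 to 27.2 CPM in non-defeated libraries, so all groups overlapped. The log2 fold change was -0.38 ± 0.27 (SE) for susceptible over resilient mice and 0.40 ± 0.27 (SE) for resilient over non-defeated mice.

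**Figure D2:**
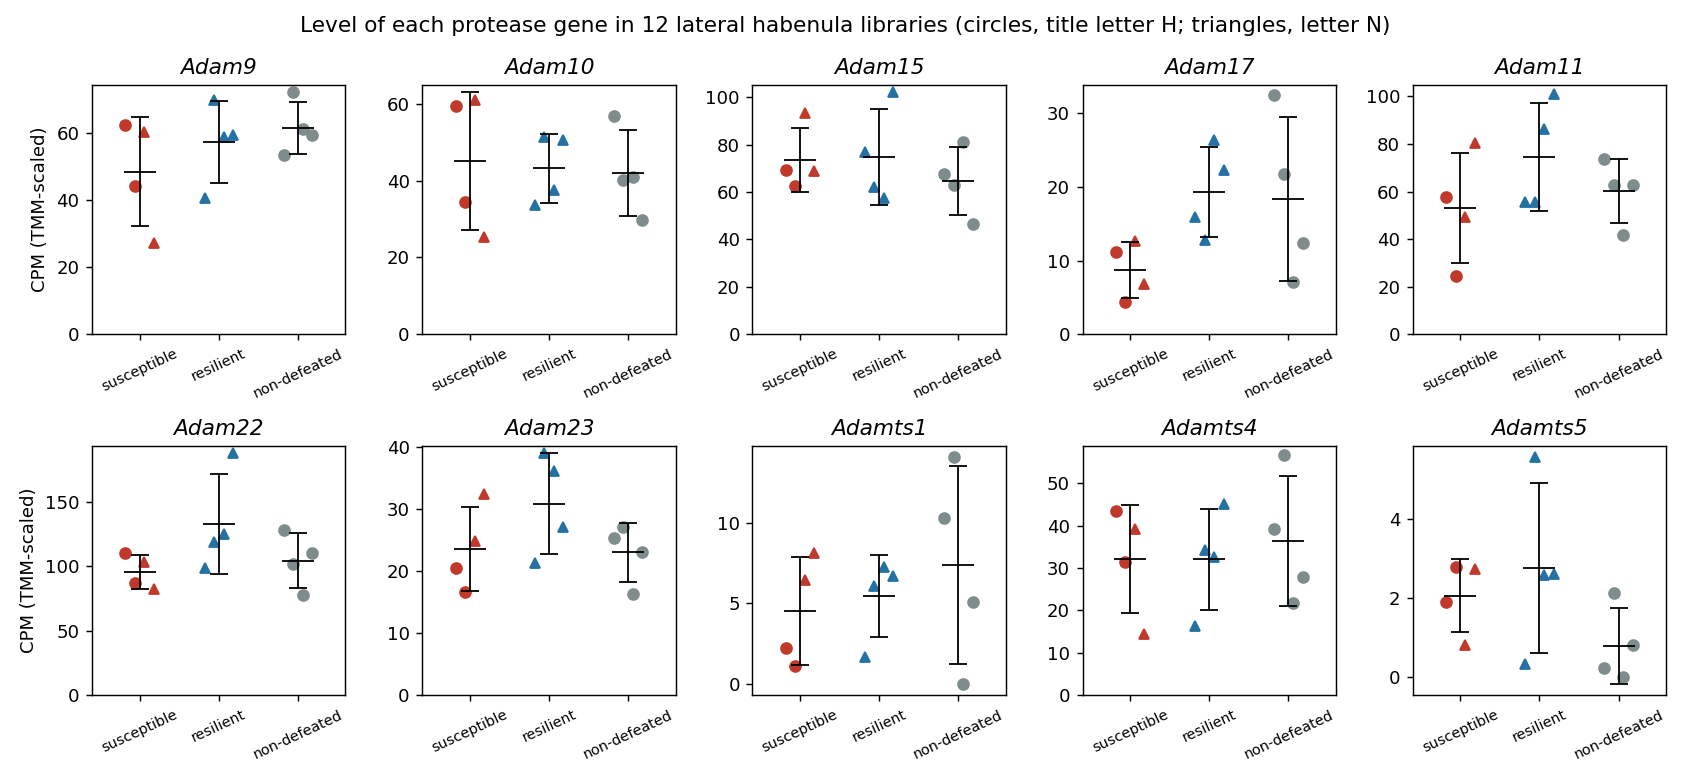
Level of each gene (y axis, CPM after TMM scaling, each panel with its own scale) in each of the 12 libraries, for susceptible, resilient and non-defeated mice, with symbols showing the letter H or N in the library title. Adam17 is the gene whose susceptible libraries, 4.39 to 12.6 CPM, all lie below the resilient ones, 12.7 to 26.4 CPM.

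Of the secreted proteases, Adamts4 is known for cutting aggrecan and brevican (ENSMUSG00000006403; chr1:171250421-171260637, plus strand). It stood at 43.4, 31.4, 39.1 and 14.5 CPM in susceptible, 16.2, 34.4, 32.7 and 45.1 CPM in resilient, and 39.1, 56.8, 21.7 and 27.8 CPM in non-defeated libraries. Means of 32.1 ± 12.8 CPM in susceptible, 32.1 ± 11.9 CPM in resilient and 36.3 ± 15.4 CPM in non-defeated mice (SD, n = 4 each) differed by less than any of these SDs. The 95% interval of its log2 difference between susceptible and resilient mice ran from -0.86 to 0.82.

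Adamts1, which cuts aggrecan and versican (ENSMUSG00000022893; chr16:85793827-85803113, minus strand), stood at 2.28, 1.16, 6.47 and 8.14 CPM in susceptible libraries. It stood at 1.70, 6.08, 7.28 and 6.70 CPM in resilient libraries and at 10.3, 14.05, 0.0418 and 5.08 CPM in non-defeated ones. The 0.0418 CPM of non-defeated replicate 3 came from 2 reads, against 203 to 566 reads in the other 3 non-defeated libraries. Susceptible over non-defeated mice gave a log2 fold change of -0.29 ± 0.75 (SE), and -1.11 without non-defeated replicate 3.

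Adamts5, an aggrecanase and the neighbour of Adamts1 on chromosome 16 (ENSMUSG00000022894; chr16:85856173-85901828, minus strand), was the scarcest. Its reads numbered 84, 96, 30 and 105 in susceptible, 14, 229, 109 and 96 in resilient, and 10, 86, 0 and 32 in non-defeated libraries. In CPM these were 1.89, 2.77, 0.80 and 2.73 in susceptible, 0.32, 5.56, 2.58 and 2.595 in resilient, and 0.22, 2.13, 0 and 0.80 in non-defeated libraries.

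Group means of Adamts5 were 2.05 ± 0.93 CPM in susceptible, 2.76 ± 2.15 CPM in resilient and 0.79 ± 0.96 CPM in non-defeated mice (SD, n = 4 each), and the groups overlapped. The log2 fold change over non-defeated mice was 0.85 ± 0.50 (SE; limma-trend adjusted p = 0.9997) in susceptible and 1.01 ± 0.50 (SE; limma-trend adjusted p = 0.737) in resilient mice. Both comparisons share the non-defeated libraries. With log2(CPM + 0.25) the fold changes were 1.53 in susceptible and 1.63 in resilient mice, and the authors' deposited table gives 1.38 and 1.81. Without resilient replicate 2 that of resilient mice was 0.66. Non-defeated replicate 3, with 0 reads of Adamts5 and 2 of Adamts1, was the deepest library, at 47.7 M reads, and the one with 732 CPM of medial habenula markers, whose part in these values was not tested.

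Susceptible mice were set against non-defeated mice, from which they differ in both defeat and social avoidance, so this comparison cannot tell them apart. Adjusted p fell under 0.05 by limma-trend for 0 of the 10 genes, where the share over all tested genes was 0%. Unadjusted p fell under 0.05 for 0 of the 10, against 3.55% of all genes, and values did not overlap for 0 of the 10, against 2.19%. Fold changes were positive for 4 and negative for 6, with a median of -0.15 on the log2 scale, beside 0.01 over all genes.

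For resilient against non-defeated mice, adjusted p fell under 0.05 by limma-trend for 0 of the 10 genes, against 0.00585% of all genes. Unadjusted p fell under 0.05 for 0 of the 10, against 7.15%, and values did not overlap for 0, against 3.66%. Fold changes were positive for 8 and negative for 2, with a median of 0.21, beside 0.02 over all genes. With the title letter as a term they were positive for 5 and negative for 5, and without resilient replicate 4 positive for 6. Adamts1 counts among the 8 at 0.045, although its mean CPM was lower in resilient mice, 5.44, than in non-defeated mice, 7.36, and its log2 ratio in the authors' deposited table was -0.44.

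For susceptible against resilient mice, which were both defeated and differ in the behaviour that named them, adjusted p fell under 0.05 by limma-trend for 0 of the 10 genes, against 0.0409% of all genes. Adam17 was the 1 gene with an unadjusted p under 0.05, against 3.48% of all genes, and the 1 gene without overlap, against 2.48%. All 10 fold changes were negative, with a median of -0.31, beside -0.02 over all genes, of which 47.7% were positive. Those of Adam10 and Adam15 were near 0 and became 0.0033 and 0.0083 with median-ratio scaling. The mean CPM of Adam10 was slightly higher in susceptible mice, 45.1, than in resilient mice, 43.2, and its log2 ratio in the authors' deposited table was 0.062. With the letter as a term Adam15 (0.14) and Adamts1 (0.48) turned positive, and with 1 library left out 0 to 3 of the 10 were positive. Correlations between the genes, given below, mean that these 10 directions are not independent of each other.

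**Figure D3:**
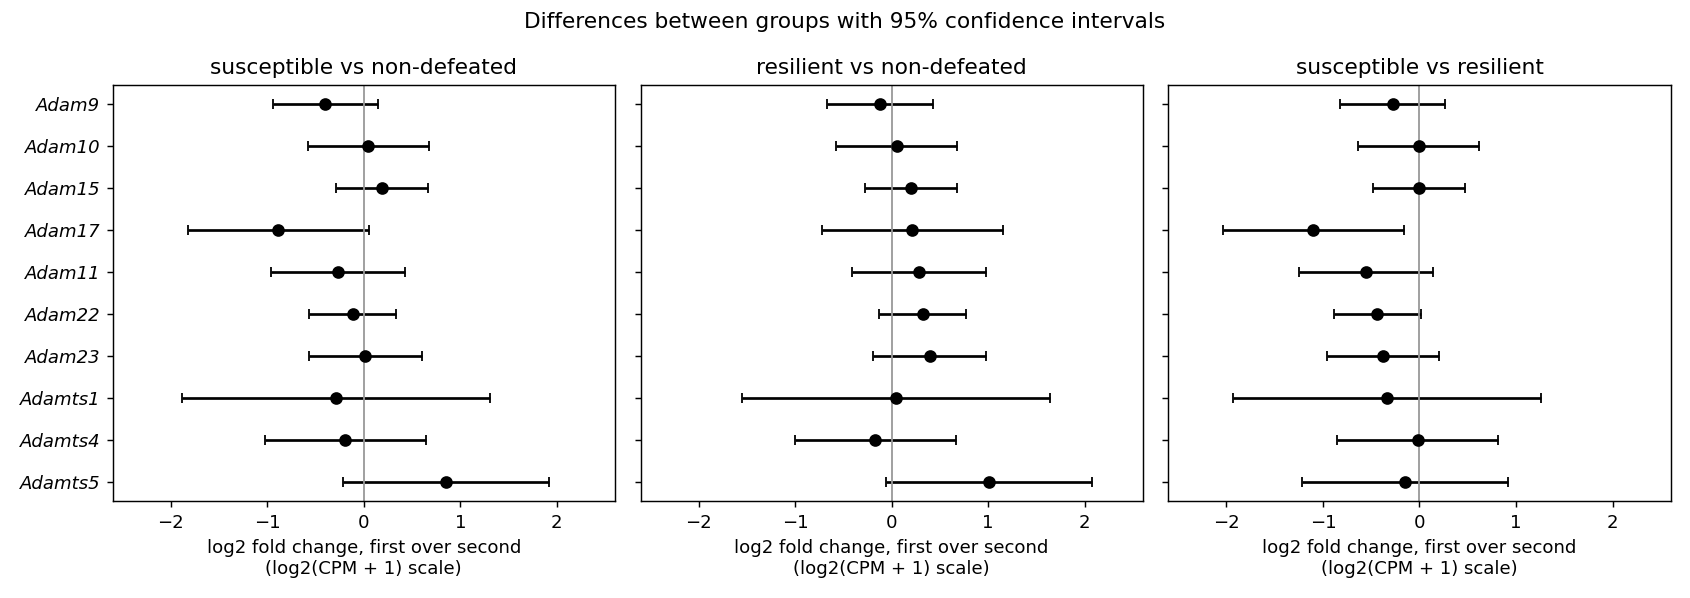
Log2 fold change of each gene on the scale of log2(CPM + 1) (x axis; points, estimate; bars, 95% interval) for susceptible over non-defeated, resilient over non-defeated and susceptible over resilient mice. The interval of Adam17 in susceptible over resilient mice, -2.04 to -0.16, is the one that leaves out 0.

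Other ADAM, ADAMTS and ADAMTS-like genes, and genes that act with these proteases, were grouped in 8 lists of 106 genes. Adjusted p fell under 0.05 by limma-trend for 0 of their tested members in each of the 3 comparisons, and the counts below are of unadjusted p under 0.05. Over all genes that share was 3.55% for susceptible and 7.15% for resilient against non-defeated mice, and 3.48% for susceptible against resilient mice. With lists this short, counts of 1 or 2 genes are not read as a result about a list. Of 9 other ADAM genes tested, 0 passed in any comparison. Of 16 other ADAMTS and ADAMTS-like genes, 1 was lower in susceptible and 2 were higher in resilient than in non-defeated mice.

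Adamts3, a procollagen N-propeptidase, averaged 0.490 ± 0.627 CPM in susceptible and 3.82 ± 3.38 CPM in non-defeated mice (SD, n = 4 each; log2 fold change -1.50, limma-trend adjusted p = 0.9997). Adamts18 averaged 5.40 ± 0.19 CPM in resilient and 2.63 ± 2.26 CPM in non-defeated mice, without overlap (log2 fold change 1.11, limma-trend adjusted p = 0.671). Adamts8 averaged 4.21 ± 2.46 CPM in resilient and 1.35 ± 1.75 CPM in non-defeated mice, with overlap (log2 fold change 1.33, limma-trend adjusted p = 0.645).

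Of 7 trafficking partners of ADAM10 and ADAM17, 2 were higher in resilient than in non-defeated mice and 0 passed in the other comparisons. Tspan33, a tetraspanin that binds ADAM10, averaged 54.8 ± 32.7 CPM in resilient and 14.1 ± 9.10 CPM in non-defeated mice (log2 fold change 1.97, limma-trend adjusted p = 0.564). Tspan33 is also expressed in red blood cell precursors, and the blood genes above were higher in both defeated groups. In susceptible mice Tspan33 averaged 33.5 ± 24.9 CPM. Whether blood had a part in its levels was not tested. Rhbdf1, which encodes the ADAM17 partner iRhom1, averaged 15.1 ± 3.46 CPM in resilient and 7.06 ± 4.98 CPM in non-defeated mice (log2 fold change 1.15, limma-trend adjusted p = 0.617).

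Of the 4 furin-type convertases, Pcsk5 passed the unadjusted threshold, higher in susceptible mice in both comparisons. Furin itself averaged 8.41 ± 3.66 CPM in susceptible, 8.03 ± 3.70 CPM in resilient and 13.8 ± 4.65 CPM in non-defeated mice (SD, n = 4 each). Of 6 inhibitors, Timp2, a tissue inhibitor of metalloproteinases, was higher in resilient mice, at 608 ± 137 CPM, than in non-defeated mice, at 328 ± 156 CPM (log2 fold change 1.04, limma-trend adjusted p = 0.632). Timp3, the tissue inhibitor known to block ADAM17, averaged 172 ± 33.8 CPM in susceptible, 149 ± 17.5 CPM in resilient and 157 ± 32.0 CPM in non-defeated mice.

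Of 21 membrane substrates of ADAM10 and ADAM17, 0 passed the unadjusted threshold in any comparison. Among 11 LGI and Kv1 complex partners of ADAM22, ADAM23 and ADAM11, Lgi2 was higher in resilient mice, 63.5 ± 18.2 CPM, than in non-defeated mice, 34.6 ± 4.78 CPM, without overlap (log2 fold change 0.83, limma-trend adjusted p = 0.601). Dlg4, the gene of PSD-95, stood at 32.8 ± 16.0 CPM in resilient and 53.3 ± 13.7 CPM in non-defeated mice (log2 fold change -0.75, limma-trend adjusted p = 0.632). Lgi4 stood at 16.8 ± 1.87 CPM in susceptible and 10.5 ± 3.65 CPM in resilient mice, without overlap (log2 fold change 0.69, limma-trend adjusted p = 0.999). Of 5 matrix substrates of ADAMTS proteases, Acan passed the unadjusted threshold, higher in susceptible mice in both comparisons. It averaged 2.49 ± 1.93 CPM in susceptible, 0.25 ± 0.18 CPM in resilient and 0 CPM in non-defeated mice (SD, n = 4 each). Acan was thus near the floor outside susceptible mice (limma-trend adjusted p = 0.9997 against non-defeated and 0.999 against resilient mice).

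The levels of the 10 genes were correlated with each other over the 12 libraries, which share the depth and scaling of each library. Of 45 pairs, 39 had a positive Pearson's r, and 0 had an adjusted p under 0.05 (permutation test, 100000 permutations). The share of positive r among pairs of other genes is not given, so the 39 are not read as a result about these genes. The highest r was 0.775 for Adam9 with Adamts4 (Spearman's rho 0.671; permutation p adjusted over 45 pairs 0.0754). It dropped to 0.334 without the 2 libraries farthest from the median of Adam9, and so depended on them. Adam23 and Adamts1 had r = 0.767 (rho 0.762; permutation p adjusted 0.0754), and 0.772 without the 2 libraries farthest from the median of Adam23. Adam17 and Adam22 had r = 0.721 (rho 0.755; permutation p adjusted 0.0866), and 0.716 without the 2 libraries farthest from the median of Adam17. The libraries left out were chosen by the first gene of each pair only. The highest Adam22 library, resilient replicate 4, therefore stayed in. The lowest r was -0.19, for Adam15 with Adamts5.

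**Figure D4:**
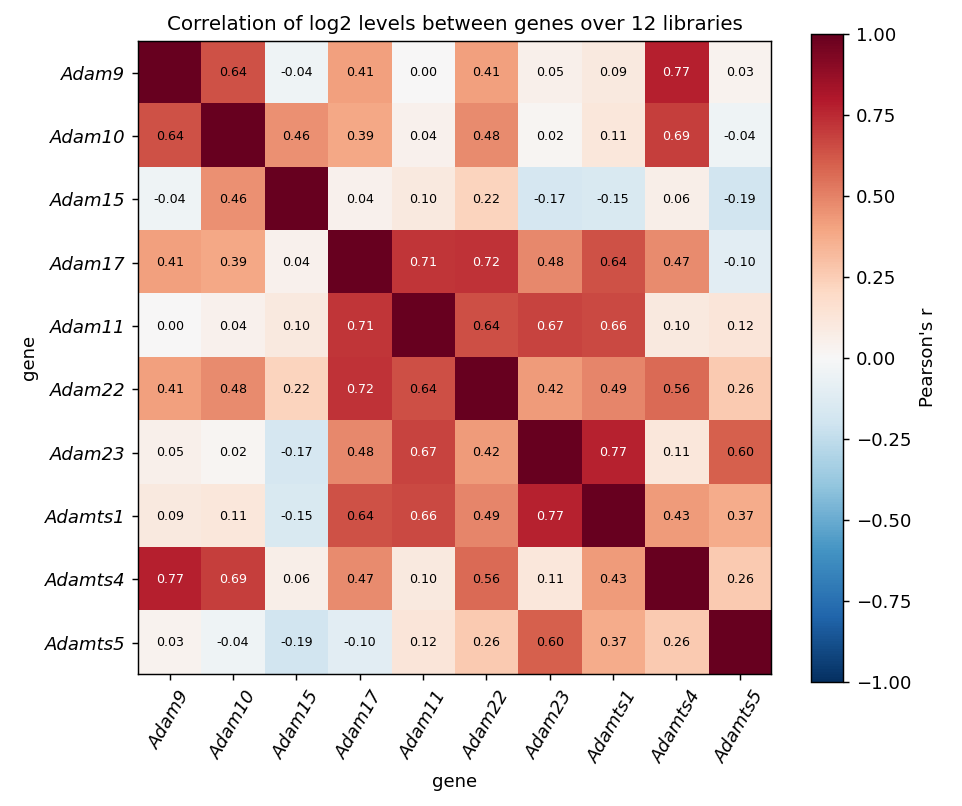
Pearson's r of log2(CPM + 1) between each pair of the 10 genes over 12 libraries (color scale from -1 to 1, both axes list the genes). Adam9 with Adamts4 and Adam23 with Adamts1 are highest, at 0.775 and 0.767, and Adam15 lies between -0.19 and 0.46 with the others.

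Among 14703 genes averaging at least 1 CPM, the 3 most like each of Adam10, Adam17, Adam22, Adamts1 and Adamts4 across the 12 libraries held none of the 10 genes. The other 5 were not searched. For Adam17 they were Gm37090 (r = 0.903), Stat5b (r = 0.861) and Mettl4 (r = 0.859). For Adam10 they were Rrnad1 (r = 0.884), Pld2 (r = 0.882) and Gmppb (r = 0.869). Trmt13 (r = 0.882), Caprin1 (r = 0.876) and Atp7a (r = 0.868) were most like Adam22. Sall1 (r = 0.895), Nek9 (r = 0.891) and Itprid2 (r = 0.888) were most like Adamts1, and Zfr2 (r = 0.889), Pcnx3 (r = 0.877) and Kctd18 (r = 0.864) most like Adamts4. With 12 libraries and so many genes searched, these values describe the closest patterns only.

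The interaction ratio of the social avoidance test ran from 0.13 to 0.69 in susceptible mice, 1.08 to 2.24 in resilient mice and 1.12 to 1.84 in non-defeated mice. In the authors' deposited table its correlation with CPM had p under 0.05 for 3 of the 10 genes, against 6.57% of all genes: Adam22 (r = 0.658), Adam11 (r = 0.594) and Adam17 (r = 0.580). The highest ratio, 2.24, was that of resilient replicate 4, which was also the highest library for Adam11 and Adam22. Adam22, Adam11 and Adam17 also correlated with each other over the 12 libraries, at r of 0.641 to 0.721. They are therefore not 3 independent results. The deposited r was positive for 9 of the 10. The share of positive r over all genes is not given, so this count is not read as a result about the family. Since the mice fall into separate clusters of the ratio, the relation was also computed within the 8 resilient and non-defeated mice. There Adam22 had r = 0.609, Adam11 r = 0.6004 and Adam17 r = 0.312 (exact permutation test, adjusted p over 10 genes 0.406, 0.406 and 0.666). The highest r of the 10 genes there was that of Adamts4, 0.621 (exact permutation test, adjusted p 0.406). Adamts1, at r = 0.437, also lay above Adam17. Spearman's rho was 0.452 for Adam22, 0.738 for Adam11 and 0.429 for Adam17 (exact permutation test, adjusted p 0.598, 0.458 and 0.598). Without the 2 mice farthest from the median ratio, r was 0.201 for Adam22, 0.299 for Adam11, 0.081 for Adam17 and 0.098 for Adamts4.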

How the data were processed

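RNA-seq libraries of lateral habenula punches from 500 µm slices were made from 100 pg of RNA with a SMART-Seq v4 kit, per the labels' protocols. Per the submitters' processing notes, featureCounts, edgeR and GRCm38 (mm10) were used; the sources used here do not give the aligner, the versions or whether strand was used, so reads of overlapping antisense genes cannot be told apart. The deposited library columns hold CPM plus a constant of 0.006078, by their values. The deposited log2 ratios, the likelihood ratio score, p-values and FDR, and the correlation with the interaction ratio, are cited as the authors' deposited table, per the file headers. The deposited interaction ratio has 1 value per mouse.

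The constant was subtracted, which left 100% of values within 0.001 read of a whole number of reads. The depths and reads printed come from these whole numbers, while no count test was run: before subtraction too few of the deposited values of 4 libraries fell on whole reads, and the tests were kept to the deposited unit. That was a choice and not a limit of these data. TMM factors were computed from CPM, unweighted (30% trimmed by ratio, 5% by level). The filter kept genes with at least 0.25 CPM in at least 4 libraries and removed 310. Log2(CPM + 1) was tested with limma-trend (limma 3.58.1, R 4.3.3, robust) in 1 model of 3 group means, with Benjamini-Hochberg adjustment over 17106 genes. Groups come from the labels. The deposited behaviour sheet lists the 12 library names as mouse IDs, so each library is taken as 1 mouse. Reads carry no molecular identifiers. The procedure was tested on simulated data.

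The genes and lists were chosen with earlier results of these data known. Named were all 10 genes and up to 4 genes with the smallest p from each list of family or partner genes. The 3 genes most correlated with each of Adam10, Adam17, Adam22, Adamts1 and Adamts4 were named as well. Of the listed family and partner genes, those past an unadjusted p of 0.05 were printed, and Furin and Timp3 for their role. The zinc-binding pattern was widened after a first version that also asked for glycine missed Adamts1 and Adamts4. Symbols were matched through GENCODE M21 for 17402 IDs, and 14 had none. Alternatives were another pseudocount, other filters and scalings, only the groups compared, the replicate number or title letter as a term, and leaving out each library.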

Additional observations from a re-analysis of the deposited data

How the results depend on the processing

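None of the 10 genes passed an adjusted p of 0.05 in any comparison under any alternative run, and over all genes susceptible against non-defeated mice gave 0 throughout. Over all genes, resilient against non-defeated mice gave 1 gene in the main analysis, 2 with median-ratio size factors, 2 with CPM as deposited, 0 with only the 2 groups compared, 0 with the replicate block, 0 with the title letter as a term, and 0 to 5 when 1 library was left out. Susceptible against resilient mice gave 7, then 1 with log2(CPM + 0.25), 1 with no filter, 0 with only the 2 groups, 0 with the replicate block, 11 with the letter, and 0 to 8 when 1 library was left out (8 without non-defeated replicate 3, 2 without non-defeated replicate 4, 0 without any other). Same-numbered libraries of different groups correlated at -0.194 to 0.129, and differently numbered ones at -0.251 to 0.280. No pairing by number was detected, which does not exclude one. The fold change of Adam17 in susceptible over resilient mice stayed negative throughout, from -1.28 to -0.84 when 1 library was left out (limma-trend adjusted p 0.680 to 1). Signs turned for folds that did not pass. With median-ratio scaling, susceptible over resilient mice gave 0.0033 for Adam10 and 0.0083 for Adam15, and with CPM as deposited Adam23 gave -0.012 in susceptible over non-defeated mice. With the letter as a term, resilient over non-defeated mice gave -0.44 for Adam11, -0.085 for Adam15, -0.14 for Adam17, -0.20 for Adam23, 0.25 for Adam9, -1.59 for Adamts1 and 0.43 for Adamts4. That term also gave -0.28 for Adam23 and 0.11 for Adamts4 in susceptible over non-defeated mice, and 0.14 for Adam15 and 0.48 for Adamts1 in susceptible over resilient mice. With 1 library left out, resilient over non-defeated mice ranged from -0.089 to 0.21 for Adam10, -0.14 to 0.54 for Adam17, -0.23 to 0.033 for Adam9, -0.77 to 0.50 for Adamts1 and -0.38 to 0.12 for Adamts4. Susceptible over non-defeated mice ranged from -0.12 to 0.30 for Adam10, -0.50 to 0.054 for Adam11, -0.13 to 0.17 for Adam23, -1.11 to 0.17 for Adamts1 and -0.40 to 0.15 for Adamts4. Susceptible over resilient mice ranged from -0.17 to 0.24 for Adam10, -0.12 to 0.15 for Adam15, -0.71 to 0.039 for Adamts1, -0.31 to 0.32 for Adamts4 and -0.58 to 0.19 for Adamts5. The cause was not tested. Alternatives that need counts were not run. Adamts5 had the fewest reads of the 10, 0 to 229 per library, and a count of 0 allows up to 3 reads by counting error.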
